A study of Homo sapiens with 6 samples.

Results

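The nuclear genes for the subunits of the mitochondrial respiratory chain and ATP synthase were examined in T98G cells with and without CBX8. Rows of the count table were taken by gene symbol: NDUFA, NDUFB, NDUFC, NDUFS and NDUFV genes, SDHA to SDHD, every symbol that begins with UQCR or ATP5, CYC1 and 11 COX subunits. Of the 57133 rows, 198 matched, and 79 of these had a mean of at least 5 CPM (counts scaled to a common library total) over the 6 libraries. These 79 rows were the members. They held 33 genes of complex I, 4 of complex II, 9 of complex III, 12 of complex IV (the 11 COX genes and NDUFA4, whose product is now placed in this complex) and 17 of complex V. The other 4 rows encode no subunit as such: ATP5S (now DMAC2L), the ATP synthase inhibitor ATP5IF1, UQCRHL (a retrocopy of UQCRH) and the antisense RNA NDUFB2-AS1.

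T98G is an established human glioblastoma line. All 6 libraries came from a T98G line in which CBX8, a chromodomain subunit of Polycomb repressive complex 1, had been knocked out. The cells carried an empty doxycycline-inducible lentiviral vector (CBX8 KO, 3 libraries) or the same kind of vector with WT CBX8 (WT CBX8 re-expression, 3 libraries), and per the labels every culture received 1 μg/ml doxycycline, the inducer, over 72 h. The comparison asks which transcripts change when CBX8 is put back. Re-expression is driven by the inducible promoter of a transgene, not by the CBX8 locus, and no unedited T98G library was analysed here. The sources used here do not say whether libraries of a condition came from separate cultures, so n counts libraries and p-values measure the spread between them.

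The respiratory chain carries electrons through 4 complexes in the inner mitochondrial membrane. Complex I takes electrons from NADH and complex II takes them from succinate. Both pass them to ubiquinone, complex III hands them on to cytochrome c, complex IV reduces oxygen, and complex V, the ATP synthase, uses the proton gradient to make ATP. Most subunits are encoded in the nucleus and imported. The core of every complex but complex II also holds subunits made from the mitochondrial genome, so both genomes supply parts of the same machines.

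CBX8 itself read 12.1, 12.4 and 10.6 CPM in the CBX8 KO libraries and 3569.9, 3588 and 3309 CPM in the re-expression libraries, matching the labels in all 6. Total counts were between 7950190 and 8659796 per library. Of the glial and mesenchymal markers, VIM, CD44 and EGFR were well expressed in every library, whereas GFAP reached 3.43 CPM at most, NES had 4 counts or fewer and S100B and SOX2 had 0 counts. The leukocyte, epithelial, endothelial and neuronal markers PTPRC, EPCAM, PECAM1 and RBFOX3 had at most 4 counts in any library. The members took 0.729% to 0.782% of all counts. Libraries are bulk cultures, so fewer cells of a kind and less RNA per cell cannot be told apart.

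The nuclear-encoded subunits of the respiratory chain changed little with WT CBX8 re-expression. In the quasi-likelihood test of edgeR, adjusted over all 14461 genes tested by the Benjamini-Hochberg method (FDR < 0.05), 5 of the 79 members were lower and 0 were higher. The 5 were CYC1, UQCRH and UQCRC2 of complex III, SDHA of complex II and ATP5MC1 of complex V. Each fell by no more than 0.24 on the log2 scale. Of all genes tested, 6.63% were lower and 6.23% were higher, and of those with a mean of at least 5 CPM, 8.09% were lower and 6.92% were higher. The 6.33% of members called lower was therefore close to the share of all genes.

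Other tools gave the same counts of members. At an unadjusted p under 0.05, 14 members were lower and 3 were higher, where 12.7% of all genes were lower and 12.7% higher. DESeq2 called 5 members lower and 0 higher, against 4.67% and 3.46% of all genes, and limma voom called 5 and 0, against 6.57% and 6.04%. The 3 re-expression libraries lay entirely below the 3 CBX8 KO libraries for 13 members and entirely above them for 2, where 14.4% of all genes lay below and 14.4% above. With 3 libraries a group, an exact permutation test of a single gene cannot go below p = 0.1.

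The size of the changes could be bounded for nearly every member. The log2 fold change had a median of -0.040 over the members, beside 0.0049 over all genes tested and -0.0031 over those with at least 5 CPM. Of the members 56 were below 0 and 23 above, beside 5789 and 5608 of the genes with at least 5 CPM. Values of the members ran from -0.25 (NDUFA5) to 0.28 (NDUFB2-AS1). The 95% interval stayed within ±0.5 for 78 members, the exception being NDUFB2-AS1, and within 1.25-fold in either direction for 67. Of the 11397 genes tested with at least 5 CPM, the interval stayed within ±0.5 for 9586 and within 1.25-fold for 6386. These medians depend on the scaling: with library size alone in place of TMM factors the members' median was 0.015 and that of all genes 0.060, and 2 members were lower (CYC1 and SDHA) and 2 higher (NDUFC1 and ATP5IF1), where 4.09% of all genes were lower and 9.68% higher.

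**Figure D1:**
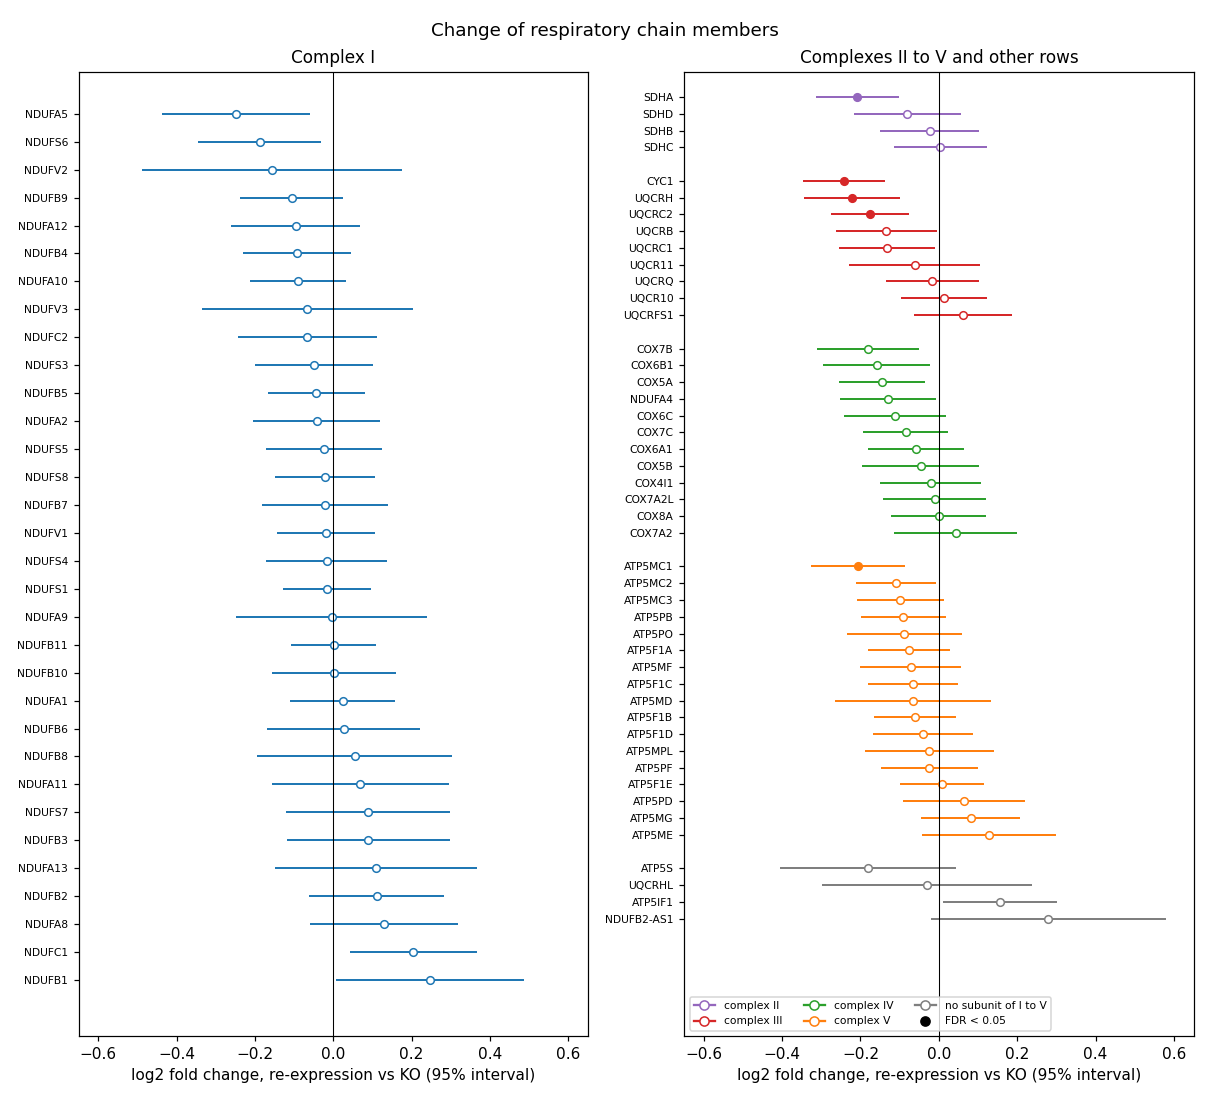
Log2 fold change (WT CBX8 re-expression against CBX8 KO, horizontal axis) of 78 of the 79 members with its 95% interval from edgeR, complex I on the left and the other complexes on the right. Filled points passed FDR < 0.05: the 5 filled points all lie left of 0, 3 of them in complex III, and no member of complex I or IV is filled.

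Complex III held 3 of the 5 members that fell, among its 9 genes. That was 33.3% of its genes, beside 6.63% of all genes, and the difference was not tested. CYC1 encodes cytochrome c1, the heme protein that passes electrons to cytochrome c. It read 198, 206 and 215 CPM in the CBX8 KO libraries and 176, 177 and 170.4 CPM with re-expression. The groups did not overlap, and the log2 fold change was -0.24 (95% interval -0.35 to -0.14, adjusted p = 0.00126). UQCRH encodes the acidic hinge protein next to cytochrome c1. Its levels were 176, 146 and 156 CPM in CBX8 KO and 140.3, 136 and 133 CPM with re-expression, again without overlap, with a log2 fold change of -0.22 (-0.34 to -0.10, adjusted p = 0.0109). UQCRC2, core protein 2 of the complex, read 281, 293 and 287 CPM in CBX8 KO. It was 255, 251 and 257 CPM with re-expression, below every CBX8 KO library, with a log2 fold change of -0.18 (-0.27 to -0.08, adjusted p = 0.0122).

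The other 6 genes of complex III did not pass the test. UQCRC1, the partner core protein, had a log2 fold change of -0.13 (adjusted p = 0.152) and its groups overlapped. By edgeR it was called lower after adjusting for GC content and length of the transcripts (-0.19, adjusted p = 0.0108). The same held when CBX8 KO replicate 1 was left out (-0.19, adjusted p = 0.0294). UQCRB, a subunit at the ubiquinone site, was also at -0.13 (adjusted p = 0.168), with all 3 re-expression libraries below the CBX8 KO libraries. UQCRFS1, the Rieske iron-sulfur protein, was at 0.06 (adjusted p = 0.57), and UQCR10, UQCR11 and UQCRQ lay between -0.06 and 0.01.

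Summed over its 9 genes, complex III had 1247, 1247 and 1254 CPM in the CBX8 KO libraries and 1161, 1153 and 1121 CPM with re-expression. The means were 1249 ± 4.12 and 1145 ± 21.3 CPM (SD, n = 3), a difference of -8.37%. This was the only complex whose summed counts did not overlap between groups both with TMM and with library size alone. The sum includes CYC1, UQCRH and UQCRC2, which were already called, so it is not a result separate from those calls. UQCRH counts carry a further limit, since UQCRHL is a near-identical copy and the program that assigned reads is not given in the sources used here. UQCRHL held 129 to 240 counts per library and had a log2 fold change of -0.03 (adjusted p = 0.92). With both rows summed, the log2 fold change was -0.20 and the adjusted p was 0.0173.

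In complex II, SDHA, the flavoprotein that oxidizes succinate, was the gene that fell. It read 162, 172 and 169.6 CPM in CBX8 KO and 144, 142 and 148 CPM with re-expression. No re-expression library reached the lowest CBX8 KO library, and the log2 fold change was -0.21 (-0.31 to -0.11, adjusted p = 0.0054). The iron-sulfur subunit SDHB (-0.02, adjusted p = 0.859) and the membrane anchors SDHC (0.0032, adjusted p = 0.982) and SDHD (-0.08, adjusted p = 0.485) did not pass the test, and their groups overlapped. The sum over the 4 genes was 488 ± 17.4 CPM in CBX8 KO and 459.5 ± 13.9 CPM with re-expression (SD, n = 3). SDHA has pseudogene copies, and the 3 rows for these (SDHAP1, SDHAP2 and SDHAP3) held 943 counts in all 6 libraries together. Adding them to SDHA gave a log2 fold change of -0.19 and an adjusted p of 0.00964.

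In complex V, ATP5MC1 was the member that fell. It is 1 of 3 genes for the same mature subunit c, which forms the rotating ring in the membrane. Its levels were 140.2, 157 and 164 CPM in CBX8 KO and 129.5, 138 and 132 CPM with re-expression. The gap between the groups was narrow, and the log2 fold change was -0.21 (-0.32 to -0.09, adjusted p = 0.0157). ATP5MC2, the second gene for subunit c, read 228, 229 and 239 CPM against 212, 223 and 210.0 CPM. Its groups did not overlap either, but it did not pass the test (-0.11, adjusted p = 0.155). The catalytic head showed small differences that did not pass: ATP5F1A (α) was at -0.08, ATP5F1B (β) at -0.06, ATP5F1C (γ) at -0.07 and the stalk subunit ATP5PO at -0.09, with adjusted p between 0.359 and 0.489. The sum over the 17 genes was 2814 ± 43.3 CPM in CBX8 KO and 2693 ± 75.5 CPM with re-expression (SD, n = 3).

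**Figure D2:**
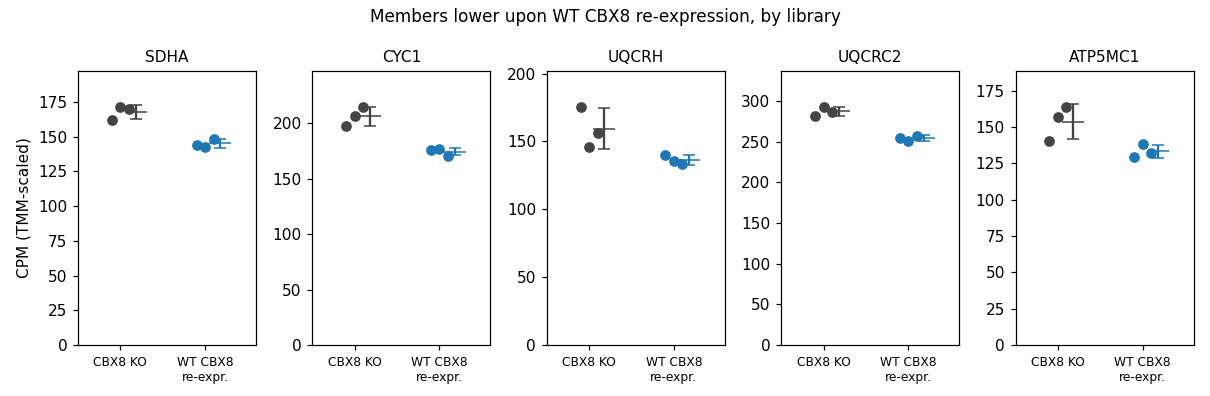
TMM-scaled CPM (vertical axis from 0) of the 5 members that fell, with 1 point per library and the mean ± SD of the 3 libraries beside them. The re-expression points lie below the CBX8 KO points in each panel.

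The calls were not equally firm. CYC1 and SDHA passed in all 15 alternative settings, with log2 fold changes between -0.31 and -0.19 for CYC1 and between -0.24 and -0.15 for SDHA. UQCRH lost its call with library size alone and without CBX8 KO replicate 1 or WT CBX8 re-expression replicate 2 (highest adjusted p 0.0921). UQCRC2 lost its call with library size alone and without CBX8 KO replicate 2 or WT CBX8 re-expression replicate 2 (highest adjusted p 0.0948). ATP5MC1 lost its call with library size alone and without CBX8 KO replicate 2, CBX8 KO replicate 3 or WT CBX8 re-expression replicate 1 (highest adjusted p 0.0929). Leaving out CBX8 KO replicate 2 or WT CBX8 re-expression replicate 2 lowered the number of members called from 5 to 3.

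The 5 genes that fell lie on 5 chromosomes. In the coordinates of GENCODE on hg38, CYC1 is on chromosome 8 from 144095039 to 144097525, UQCRH on chromosome 1 from 46303698 to 46316776 and UQCRC2 on chromosome 16 from 21953288 to 21983660. SDHA is on chromosome 5 from 218303 to 257082 and ATP5MC1 on chromosome 17 from 48892765 to 48895871, and all 5 are on the plus strand. The median log2 fold change of tested genes within 1 Mb of each lay between -0.014 (50 genes around CYC1) and 0.061 (13 genes around UQCRC2). Of the 50 around CYC1, 6 were called lower and 0 higher. The calls were 3 lower and 2 higher of 25 around UQCRH, and 1 and 2 of 25 around ATP5MC1. Around SDHA and UQCRC2 they were 0 and 0 of 13 each. Of all genes, 6.63% were lower and 6.23% higher.

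Promoters of respiratory chain genes are known for sites of the activators NRF1 and GABPA, an ETS factor, and for YY1 and SP1 sites. RefSeq promoters (GRCh38.p14, 250 bases before to 50 bases after the gene's start) could be matched for 63 of the 79 members and were searched on both strands. The NRF1 letters GCGCATGC stood in 12 of the 63 promoters, or 19.0%, beside 3.05% of all 35116 promoters and 5.83% of those of tested genes. The ETS letters CCGGAAGT stood in 15.9% of the members' promoters, beside 4.14% of all and 9.20% of tested genes. The YY1 letters AAGATGGCG stood in 9.52%, beside 1.75% and 4.16%, and the SP1 letters GGGGCGGGG in 15.9%, beside 15.7% and 27.8%. The median log2 fold change was -0.052 for members with the NRF1 letters and -0.019 for those without them. These medians were -0.031 and -0.021 for the ETS letters, -0.020 and -0.021 for the YY1 letters and -0.034 and -0.021 for the SP1 letters, and none of these differences was tested.

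Of the genes that fell, SDHA, UQCRH, UQCRC2 and ATP5MC1 were matched, and UQCRH alone of these held any of the letters in the searched window. The stretches shown here hold no annotated exon of any gene and allow the promoters of genes that fell to be set beside ATP5MC2, which holds the NRF1 letters and was not called. They are, 5′ to 3′ on the strand of the gene in GRCh38.p14, chr5:218198-218297 on the plus strand for SDHA, chr1:46303617-46303697 on the plus strand for UQCRH, chr16:21953188-21953287 on the plus strand for UQCRC2, chr17:48892678-48892764 on the plus strand for ATP5MC1 and chr12:53676084-53676175 on the minus strand for ATP5MC2. Capitals mark the ETS letters of UQCRH and the NRF1 letters of ATP5MC2, both read from the reverse strand.
SDHA: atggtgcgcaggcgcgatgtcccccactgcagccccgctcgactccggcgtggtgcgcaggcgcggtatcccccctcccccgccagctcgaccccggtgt
UQCRH: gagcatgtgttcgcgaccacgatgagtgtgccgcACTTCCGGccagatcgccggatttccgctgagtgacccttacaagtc
UQCRC2: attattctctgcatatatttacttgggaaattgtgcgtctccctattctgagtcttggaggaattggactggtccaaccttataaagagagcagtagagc
ATP5MC1: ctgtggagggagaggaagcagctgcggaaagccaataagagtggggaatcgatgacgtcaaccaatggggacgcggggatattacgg
ATP5MC2: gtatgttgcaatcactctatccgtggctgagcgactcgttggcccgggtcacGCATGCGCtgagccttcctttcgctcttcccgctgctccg
A match to these letters is a description of the window and does not show that a factor binds there.

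Complex I, the largest group, had 0 of 33 genes called by edgeR, DESeq2 or limma voom. Of all genes, edgeR called 6.63% lower and 6.23% higher. DESeq2 called 4.67% and 3.46% of all genes, and limma voom 6.57% and 6.04%. At an unadjusted p under 0.05, 2 of the 33 were lower and 2 were higher, where 12.7% of all genes were lower and 12.7% higher. The median log2 fold change of the 33 was -0.019. The core subunits of complex I carry the flavin and iron-sulfur centres that lead electrons from NADH to ubiquinone. NDUFS1, the largest of them, read 97.1, 95.1 and 97.4 CPM in CBX8 KO and 96.1, 96.9 and 93.1 CPM with re-expression, with overlapping groups and a 95% interval from -0.13 to 0.09. NDUFV1, which binds NADH and flavin, was at -0.02 (-0.14 to 0.10), and NDUFS3, NDUFS7 and NDUFS8, in the arm that leads to ubiquinone, lay at -0.05, 0.09 and -0.02. NDUFV2 was at -0.16 with the widest interval of the core, -0.48 to 0.17, and was also the member with the lowest mean, 8.70 CPM.

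The largest differences in complex I were in accessory subunits, which surround the core and are needed for its assembly or stability. The 4 described here were singled out after their values were seen, as were UQCRB, ATP5MC2 and the rows that encode no subunit. NDUFA5 read 36.6, 33.0 and 38.0 CPM in CBX8 KO and 32.0, 31.2 and 27.4 CPM with re-expression. NDUFS6 read 48.1, 49.3 and 52.1 CPM and then 47.3, 42.0 and 41.9 CPM. In both genes the re-expression libraries lay below the others, but neither difference passed the test (-0.25, adjusted p = 0.0746, and -0.19, adjusted p = 0.104). NDUFS6 was called lower after adjusting for GC content and length of the transcripts (-0.22, adjusted p = 0.0268), and also when WT CBX8 re-expression replicate 1 was left out (-0.25, adjusted p = 0.0488). NDUFC1 went the other way, with 37.1, 36.8 and 37.9 CPM in CBX8 KO and 45.3, 42.3 and 41.3 CPM with re-expression. NDUFB1, a low gene at 13.0 ± 0.937 and 15.4 ± 1.21 CPM (SD, n = 3), was likewise above in every re-expression library. Neither passed the test (0.20, adjusted p = 0.0858, and 0.25, adjusted p = 0.178), and NDUFC1 was called higher with library size alone (0.26, adjusted p = 0.0278) and after the same GC and length adjustment (0.24, adjusted p = 0.0273).

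Summed over its 33 genes, complex I was 1744 ± 53.8 CPM in CBX8 KO and 1716 ± 59.5 CPM with re-expression (SD, n = 3). The 2 groups overlapped. The difference was smaller than the spread of either group.

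Complex IV also had 0 of 12 genes called by edgeR, DESeq2 or limma voom, with 4 lower and 0 higher at an unadjusted p under 0.05. Of all genes, edgeR called 6.63% lower and 6.23% higher, and 12.7% were lower and 12.7% higher at that unadjusted p. The nuclear subunits of complex IV surround a catalytic core made in the mitochondrion. Of those that contact the core, COX5A read 157, 168 and 165 CPM in CBX8 KO and 153, 149 and 141 CPM with re-expression. These groups did not overlap, and the difference missed the threshold (-0.15, adjusted p = 0.0659). COX5A was called lower when CBX8 KO replicate 1 was left out (-0.18, adjusted p = 0.0414). COX4I1 (-0.02, adjusted p = 0.876) and COX5B (-0.05, adjusted p = 0.749) had overlapping groups.

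COX7B came closest to a call, at -0.18 (-0.31 to -0.05, adjusted p = 0.0532), with 150.2, 140.2 and 125 CPM in CBX8 KO and 125, 114 and 128 CPM with re-expression. It was called lower with RLE scaling (adjusted p = 0.0487), with no filter (adjusted p = 0.0111), and when CBX8 KO replicate 3 (-0.25, adjusted p = 0.00665) or WT CBX8 re-expression replicate 3 (-0.22, adjusted p = 0.0367) was left out. COX6B1 was at -0.16 (adjusted p = 0.12) and NDUFA4 at -0.13 (adjusted p = 0.153), and in COX7B, COX6B1 and NDUFA4 alike the groups overlapped. NDUFA4 was called lower when CBX8 KO replicate 1 was left out (-0.19, adjusted p = 0.0338). COX7B, COX6B1 and NDUFA4 were picked after their values were seen. The median over the 12 genes was -0.071, and the sum went from 1407 ± 49.7 to 1332 ± 39.3 CPM (SD, n = 3) with overlap.

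**Figure D3:**
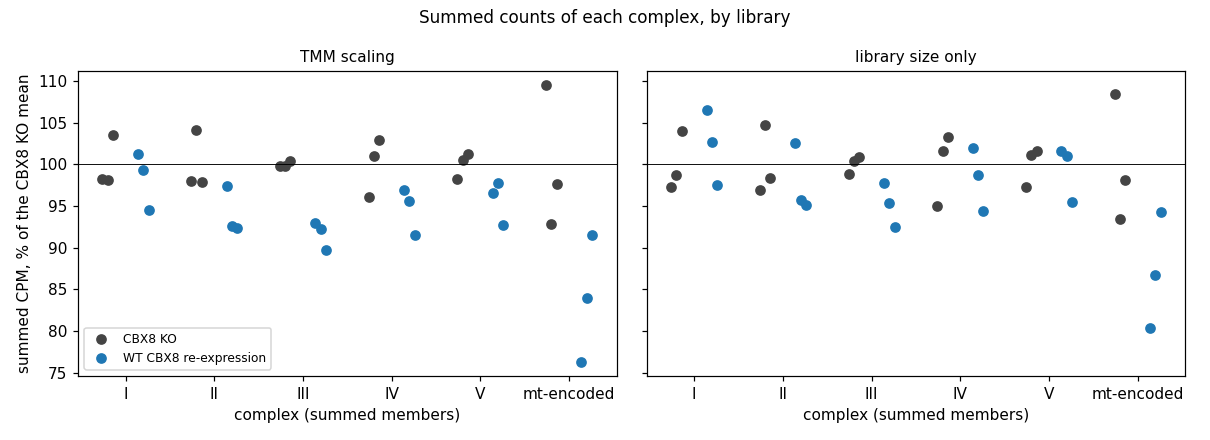
Summed CPM of the members of each complex, and of the 13 mitochondrially encoded subunits, in each library as a percentage of the CBX8 KO mean, with TMM scaling on the left and library size alone on the right. Complex III lies below the CBX8 KO libraries in both panels, whereas complexes II and V and the mitochondrially encoded subunits do so only with TMM scaling.

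The 4 rows that encode no subunit as such did not pass the test either. ATP5IF1, which blocks ATP hydrolysis by the synthase when the proton gradient falls, was at 0.16 (adjusted p = 0.151), and it was called higher with library size alone (0.21, adjusted p = 0.0407). ATP5S was at -0.18 (adjusted p = 0.309). NDUFB2-AS1 was at 0.28 (adjusted p = 0.229), on 69 to 124 counts per library. It overlaps exons of NDUFB2 on the other strand, and reads of the pair cannot be told apart without a known strand setting. Exons of 44 of the 79 members overlap another annotated gene, 30 of them on the opposite strand, and 44 members have at least 1 pseudogene row.

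The re-expression libraries were not alike in these genes. WT CBX8 re-expression replicate 3 lay below the mean of all 6 libraries for 61 of the 79 members, with a median deviation of -0.070 on the log2 scale, whereas the other 5 libraries were below it for 26 to 38 members. Without this replicate, 6 members were called lower and 0 higher, and the median log2 fold change of the members was -0.017.

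A symbol rule leaves out some subunits, and 119 of the matching rows had a mean under 5 CPM, 89 of them with no count in any library. Just under the minimum were the pseudogene UQCRFS1P1 at 3.91 CPM, NDUFA7 at 2.45 CPM and the readthrough row ATP5MF-PTCD1 at 2.10 CPM. NDUFA3 and NDUFA6, subunits of complex I, had a mean of 0.0582 CPM and 0 counts. NDUFA6 has copies on 3 alternate contigs of hg38, and whether reads of either gene were lost in alignment or counting was not tested. NDUFAB1, the acyl carrier subunit of complex I that the rule does not take, was at -0.11 (adjusted p = 0.38).

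The subunits encoded in the mitochondrial genome were set beside the nuclear members. Of the 13, 9 (69.2%) were lower and 0 higher by edgeR, beside 6.63% and 6.23% of all genes. The 13 genes lie in the same genome and each read highest in CBX8 KO replicate 1, so their calls need not be separate results. At an unadjusted p under 0.05 all 13 were lower and 0 higher, beside 12.7% of all genes each way. DESeq2 called 4 and limma voom 11 lower, beside 4.67% and 6.57% of all genes, and neither called any of the 13 higher. The median log2 fold change of the 13 was -0.27. For 6 of them the re-expression libraries lay entirely below the CBX8 KO libraries, as for 14.4% of all genes. MT-CYB, the cytochrome b of complex III, read 4079.8, 3414 and 3668 CPM in CBX8 KO and 2838, 2998 and 3167 CPM with re-expression (-0.31, adjusted p = 0.000732). MT-ND3 and MT-ND1 of complex I were at -0.29 each (adjusted p = 0.00139 and 0.00388), and MT-CO3 of complex IV was at -0.27 (adjusted p = 0.00172). MT-CYB, MT-ND3 and MT-CO3 passed in all 15 alternatives. MT-ND1 passed in 13, losing its call by DESeq2 (adjusted p = 0.115) and, by edgeR, without CBX8 KO replicate 1 (adjusted p = 0.061). The mitochondrial ribosomal RNAs MT-RNR1 (0.17, adjusted p = 0.0954) and MT-RNR2 (0.05, adjusted p = 0.74) did not pass.

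The mitochondrially encoded subunits varied more between libraries than the nuclear members. They took 5.55% to 7.50% of counts, most in CBX8 KO replicate 1, and without that library 3 of the 13 were called. Their sum was 10.1, 8.37 and 8.70 times the summed CPM of the nuclear members in CBX8 KO and 7.10, 7.86 and 8.94 times with re-expression. WT CBX8 re-expression replicate 3 lay within the CBX8 KO range, so the ratio overlapped between the groups, and the difference between the 2 sets of subunits was not tested. Library preparation selected polyadenylated RNA, and the part of that step in these values was not tested.

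**Figure D4:**
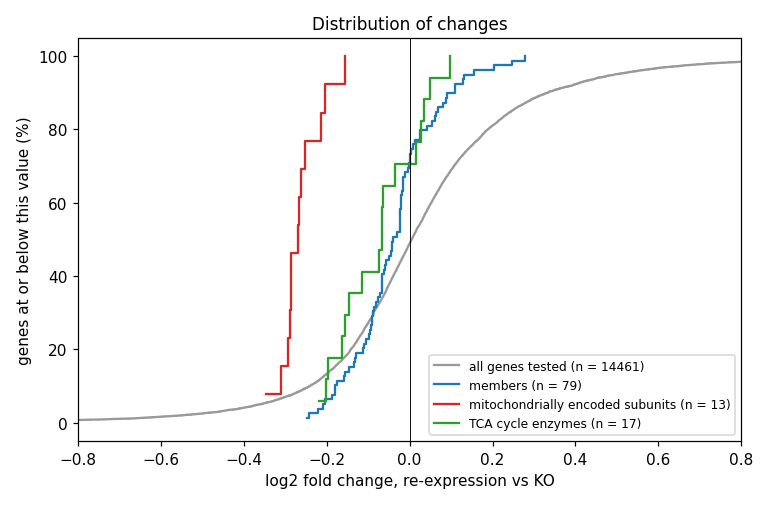
Share of genes (vertical axis, %) with a log2 fold change at or below the value on the horizontal axis, for all genes tested, the 79 members, the 13 mitochondrially encoded subunits and 17 TCA cycle enzymes. The curve of the members is steeper than that of all genes and passes 50% at -0.040, whereas the mitochondrially encoded subunits all lie below 0. All genes tested include genes under the 5 CPM minimum of the members, and no curve without them is shown.

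Genes that build, feed or regulate the chain were compared from lists, by the same fit. Of 51 assembly factors, 3 were lower and 2 were higher, or 5.88% and 3.92%, beside 6.63% and 6.23% of all genes. With library size alone 0 were lower and 2 higher, where 4.09% of all genes were lower and 9.68% higher. DESeq2 called 1 lower and 2 higher, beside 4.67% and 3.46% of all genes. Without CBX8 KO replicate 2 or WT CBX8 re-expression replicate 2 none was lower and 2 or 1 were higher. SDHAF3, which helps insert iron-sulfur clusters into SDHB, had the largest change among the 5 called by edgeR. It read 4.04, 2.97 and 3.20 CPM in CBX8 KO and 7.76, 7.65 and 8.81 CPM with re-expression (log2 fold change 1.24, 0.86 to 1.63, adjusted p = 3.34e-05). COX17, the copper chaperone of complex IV, rose from 14.1 ± 1.82 to 19.3 ± 2.06 CPM (SD, n = 3; 0.46, adjusted p = 0.00951). LRPPRC, which stabilizes mitochondrial mRNAs (-0.18, adjusted p = 0.0111), and TMEM70, an assembly factor of complex V (-0.28, adjusted p = 0.0244), were lower. The third lower gene was SCO1. SDHAF3 passed in all 15 alternatives, LRPPRC in 12 and TMEM70 in 9, and COX17 passed in 13, losing its call without CBX8 KO replicate 1 or WT CBX8 re-expression replicate 2.

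Of 14 genes for electron carriers, CYCS, cytochrome c, was the 1 called, at -0.22 (adjusted p = 0.00202), with 335 ± 10.5 CPM in CBX8 KO and 287 ± 5.41 CPM with re-expression (SD, n = 3). At an unadjusted p under 0.05, 2 carriers were lower and 0 higher. The carriers called lower were 7.14% of the list, beside 6.63% of all genes, and 12.7% of all genes were lower at that unadjusted p. CYCS receives electrons from CYC1, which was at -0.24. Of 14 regulators of mitochondrial biogenesis, MYC (-0.56, adjusted p = 3.47e-08) and TFB2M, a mitochondrial transcription factor (-0.30, adjusted p = 0.0279), were lower. They were 14.3% of that list, beside 6.63% of all genes. At an unadjusted p under 0.05, 7 regulators were lower and 0 higher, where 12.7% of all genes were lower. MYC read 114, 114 and 109 CPM in CBX8 KO and 74.2, 76.1 and 78.0 CPM with re-expression. MYC passed in all 15 alternatives and TFB2M in 7. By DESeq2, MYC alone was called, and by limma voom both were, where 4.67% and 6.57% of all genes were lower.

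Of 77 genes tested for mitochondrial ribosomal proteins, 5 were lower and 0 higher, with 14 and 2 at an unadjusted p under 0.05, 3 and 0 by DESeq2 and 4 and 0 by limma voom. The 6.49% called lower was close to the 6.63% of all genes. At an unadjusted p under 0.05, 12.7% of all genes were lower and 12.7% higher. The shares of all genes lower and higher were 4.67% and 3.46% by DESeq2 and 6.57% and 6.04% by limma voom. The 4 with the smallest p were MRPS27 (-0.19), MRPL4 (-0.24), MRPL15 (-0.24) and MRPL37 (-0.16). MRPS27 passed in 14 alternatives and MRPL37 in 8, and with library size alone 0 genes of this list were lower and 1 was higher. That scaling gave 4.09% of all genes lower and 9.68% higher. The count of lower genes was 2 with WT CBX8 re-expression replicate 2 or 3 left out and 3 with CBX8 KO replicate 2 left out. Of 17 TCA cycle enzymes, which make the NADH and succinate the chain oxidizes, 4 (23.5%) were lower and 0 higher, beside 6.63% of all genes lower. At an unadjusted p under 0.05, 7 were lower and 0 higher, where 12.7% of all genes were lower. DESeq2 called 3 and 0 and limma voom 4 and 0, where 4.67% and 6.57% of all genes were lower. Among the 4 lower by edgeR were CS, citrate synthase (-0.22, adjusted p = 0.00206), MDH2 (-0.20) and PDHA1 (-0.20). CS passed in all 15 alternatives, MDH2 and PDHA1 in 13 each, and with library size alone 1 of the 17 was lower, as were 2 with CBX8 KO replicate 2 or WT CBX8 re-expression replicate 2 left out. The 7 isoforms typical of other tissues, such as COX4I2, COX6A2 and COX7A1, were not tested because none passed the filter on low counts.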

How the data were processed

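RNA-seq was compared between 3 CBX8 KO and 3 WT CBX8 re-expression libraries of T98G cells, grouped by their titles. For the re-expression libraries the genotype label reads wild-type, whereas the title and the study's methods describe CBX8 put back into the KO line, and the latter was followed. The authors selected poly(A) RNA, sequenced 100 bp paired ends on a BGISeq500, trimmed adapters (Trimmomatic), aligned reads to hg38 (HISAT2) and deposited raw counts per gene symbol. The counting program, annotation and strand setting are not given in the sources used here. PCR copies could not be removed by identifiers, and depth therefore speaks to counting error alone.

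Genes were filtered (filterByExpr, 14461 kept), scaled by TMM and fitted with edgeR 4.0.16 in R 4.3.3 (glmQLFit and glmQLFTest, condition only, FDR < 0.05). Standard errors were derived from the log2 fold change and its F statistic, and 95% intervals from these. CPM values in the text are TMM-scaled, with 3 exceptions that use library size. These are the 5 CPM minimum, the mean of NDUFV2 over all libraries and the means of rows under the minimum. The variation between libraries beyond counting error was 4.70%. Sums over complexes and list medians are descriptions without a test.

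Members and lists were chosen with earlier results of these data known. Named were the core subunits, all called members and up to 4 called genes of each list, with exceptions stated. Some genes of this rule are not reported here. Other settings tried were scaling by RLE, by the upper quartile or by library size, DESeq2 1.42.0, voom of limma 3.58.1, other filters and thresholds, the replicate block, a GC and length adjustment and each library left out. Summing UQCRH and SDHA with their copies was added after the data were seen. GC and length were found for 87.8% of tested genes and all 79 members (GENCODE release 44). Counts of libraries within a group differed by more than sampling noise (chi-square per degree of freedom 1.96 to 2.90).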

Additional observations from a re-analysis of the deposited data

How the results depend on the processing

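With library size alone, 2 members were lower and 2 higher, 592 genes of all were lower and 1400 higher, and the members' median was 0.015. The log2 ratios of summed CPM were then 0.032 (complex I), -0.032 (II), -0.070 (III), -0.024 (IV) and -0.0080 (V), and among the 36 members followed singly through the settings signs turned for NDUFS1 (0.039), NDUFS3 (0.0060), NDUFS8 (0.035), NDUFV1 (0.037), SDHB (0.033), COX4I1 (0.034), COX5B (0.010) and UQCRHL (0.025), none of them called. The GC and length adjustment gave 7 members lower and 1 higher and 1353 and 816 genes of all, and turned SDHB (0.019) and UQCRHL (0.012). SDHC turned with RLE scaling (-0.00014) and with no filter (-0.0099), and UQCRHL with limma voom (0.0016). DESeq2 called 501 genes of all higher. At FDR < 0.01, 2 members were lower, with 569 genes of all lower and 489 higher. At 1.5-fold or more, 0 members were lower, with 144 and 284 genes of all. Why these settings differ was not tested.

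Leaving out 1 library at a time, 3 to 7 members were lower (7 without CBX8 KO replicate 1), 635 to 851 genes of all were lower and 593 to 792 higher, fewest without WT CBX8 re-expression replicate 2. Members whose sign turned ranged from -0.14 to 0.0086 (NDUFS3), -0.031 to 0.18 (NDUFS7), -0.090 to 0.010 (NDUFS8), -0.078 to 0.031 (NDUFV1), -0.078 to 0.032 (SDHB), -0.032 to 0.061 (SDHC), -0.098 to 0.035 (COX4I1) and -0.21 to 0.17 (UQCRHL). Over these 36 members, counting UQCRH and SDHA also with their copies summed, 488 values kept direction and side of the threshold, 10 lost a call, 13 gained one and 31 turned sign. With the replicate number as a block, 5 members were lower and 0 higher, with 766 and 739 genes of all. Same-numbered libraries correlated at -0.10, -0.11 and -0.07 and no library correlated best with its own number. These values show no expression pattern shared by number, but cannot tell whether same-numbered libraries were prepared together. Complex sums have no separate value with DESeq2, limma voom, the block or the GC adjustment.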
